A study of Homo sapiens with 24 samples.

Results

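The nuclear genes considered here are PPARA and 9 other regulators of fatty acid oxidation and mitochondrial biogenesis: PPARD, RXRA, PPARGC1A, PPARGC1B, PPRC1, ESRRA, NRF1, GABPA and GABPB1. They were taken by name, as the genes whose symbol is the only one the platform annotation gives for a probe set, a probe set being a group of short probes that together report 1 transcript or a few. This gave 33 probe sets of 10 genes, out of 41091 probe sets of 19775 genes with a single symbol. Their levels were measured on 24 Affymetrix 3′ expression arrays, as MAS5 signals, a linear measure of brightness, in 8 groups of 3 cultures.

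Of these groups, 6 are HEK293 cells, a human embryonic kidney line, that carry a transgene for a dominant-negative form of the mitochondrial DNA polymerase (DN-POLG), which stops replication of mitochondrial DNA (mtDNA) once doxycycline turns it on. The DN-POLG cells were taken uninduced (day 0) and after 3, 6 and 9 days with doxycycline. A derivative that also expresses the alternative oxidase AOX and the NADH dehydrogenase NDI1 (AOX/NDI1), enzymes that oxidise mitochondrial NADH without the mtDNA-encoded complexes, was taken uninduced and at day 9. The other 2 groups are 143B osteosarcoma cells, either with mtDNA (rho+) or chronically without it after ethidium bromide (rho0). Cells of all groups grew in high-glucose medium with uridine and pyruvate. Each 143B group is 1 line, so loss of mtDNA cannot be told apart from other differences between the lines, and flasks of a culture were pooled at days 6 and 9 of induction. The p-values measure the spread between cultures of the same cells.

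PPARα and PPARδ are fatty acid receptors that bind DNA as partners of the retinoid X receptor RXRα, and PPARα is best known for turning on fatty acid uptake and oxidation in fasting liver, heart and kidney. The coactivators PGC-1α (PPARGC1A), PGC-1β (PPARGC1B) and PRC (PPRC1) bind no DNA themselves and act through such receptors, through the orphan receptor ERRα (ESRRA) and through NRF1. NRF1 and the GA-binding protein, whose α chain (GABPA) binds DNA and whose β chain (GABPB1) activates transcription, act at the promoters of nuclear genes for the respiratory chain and for replication and transcription of mtDNA.

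Of the 33 probe sets, 24 were bright enough to be tested in HEK293 cells, with a mean signal of at least 57.2, and 21 in 143B cells, with at least 83.3, and every one of the 10 genes had a tested probe set in both lines. The arrays were scaled alike, each to a trimmed mean of 499.9. The POLG probe set 217635_s_at, which checks the transgene, read 280 to 421 in uninduced DN-POLG cells and 2834 to 4739 on the 9 induced arrays, and in AOX/NDI1 cells it went from 197 to 274 to 4035, 2468 and 447, so that replicate 3 of AOX/NDI1 day 9 stood apart. Transcripts of mtDNA fell for 3 of 7 genes at day 9 of both models and for 7 of 7 in rho0 cells. In AOX/NDI1 cells these were ATP6, COX2 and ND6, and replicate 3 of day 9 lay below every day 0 array in each called probe set. The ACTB signal from the 3′ end over that from the 5′ end, a sign of RNA quality, was 8.92 in replicate 1 of DN-POLG day 6 and at most 1.81 on the other HEK293 arrays. It ran from 1.27 to 1.52 in AOX/NDI1 cells at day 9 against 1.14 to 1.18 at day 0, and from 5.53 to 8.12 in rho0 against 10.4 to 17.1 in rho+ cells. Summed signals of 9 markers of HEK293 cells were 7142 to 15670 on the HEK293 arrays and 889.5 to 1594 on the 143B arrays, and those of 11 markers of 143B and mesenchymal cells 5780 to 9146 and 30820 to 55850. Of these markers EYA1 fell at day 9 of both models and SIM1 in AOX/NDI1 cells, where DPYSL3 rose, and DPYSL3, CD44, FOSL1, LGALS1 and S100A4 were higher in rho0 cells. The part of these markers and ratios in the results was not tested. Each array reports RNA of a whole culture, so that fewer cells with a transcript and less transcript per cell cannot be told apart.

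At day 9 of induction 5 of the 10 genes fell in DN-POLG cells and 6 in AOX/NDI1 cells, and none rose. In DN-POLG cells these were PPARA, RXRA, PPARGC1B, NRF1 and GABPB1, through 6 of 24 tested probe sets, where 6.07% of all tested probe sets and 9.66% of all tested genes were called lower. In AOX/NDI1 cells PPARGC1A joined them, through 8 of 24 probe sets, where 9.33% of all probe sets and 14.4% of all genes were called lower. Called means an adjusted p (Benjamini-Hochberg over all tested probe sets, limma) of at most 0.05, and a gene was called where any probe set passed. The median log2 fold change of the 24 member probe sets was -0.70 in DN-POLG and -0.44 in AOX/NDI1 cells, against 0.01 and -0.04 over all tested probe sets. In 143B cells the pattern differed, since PPARGC1B and PPRC1 were higher in rho0 than in rho+ cells through 3 of 21 probe sets (2.24% of all probe sets and 3.68% of all genes called higher) and PPARA and PPARGC1A lower through 2 of 21 (5.41% and 7.75% called lower). PPARD, ESRRA and GABPA passed in no comparison, other than under the alternatives given with each. The counts depended on single arrays. In DN-POLG cells 3 members passed without replicate 3 of day 9, in AOX/NDI1 cells 3 or 4 passed with any 1 of the 6 arrays left out, and in 143B cells 0 passed without any 1 of the 6 except replicate 3 of rho0, without which 5 did.

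**Figure D1:**
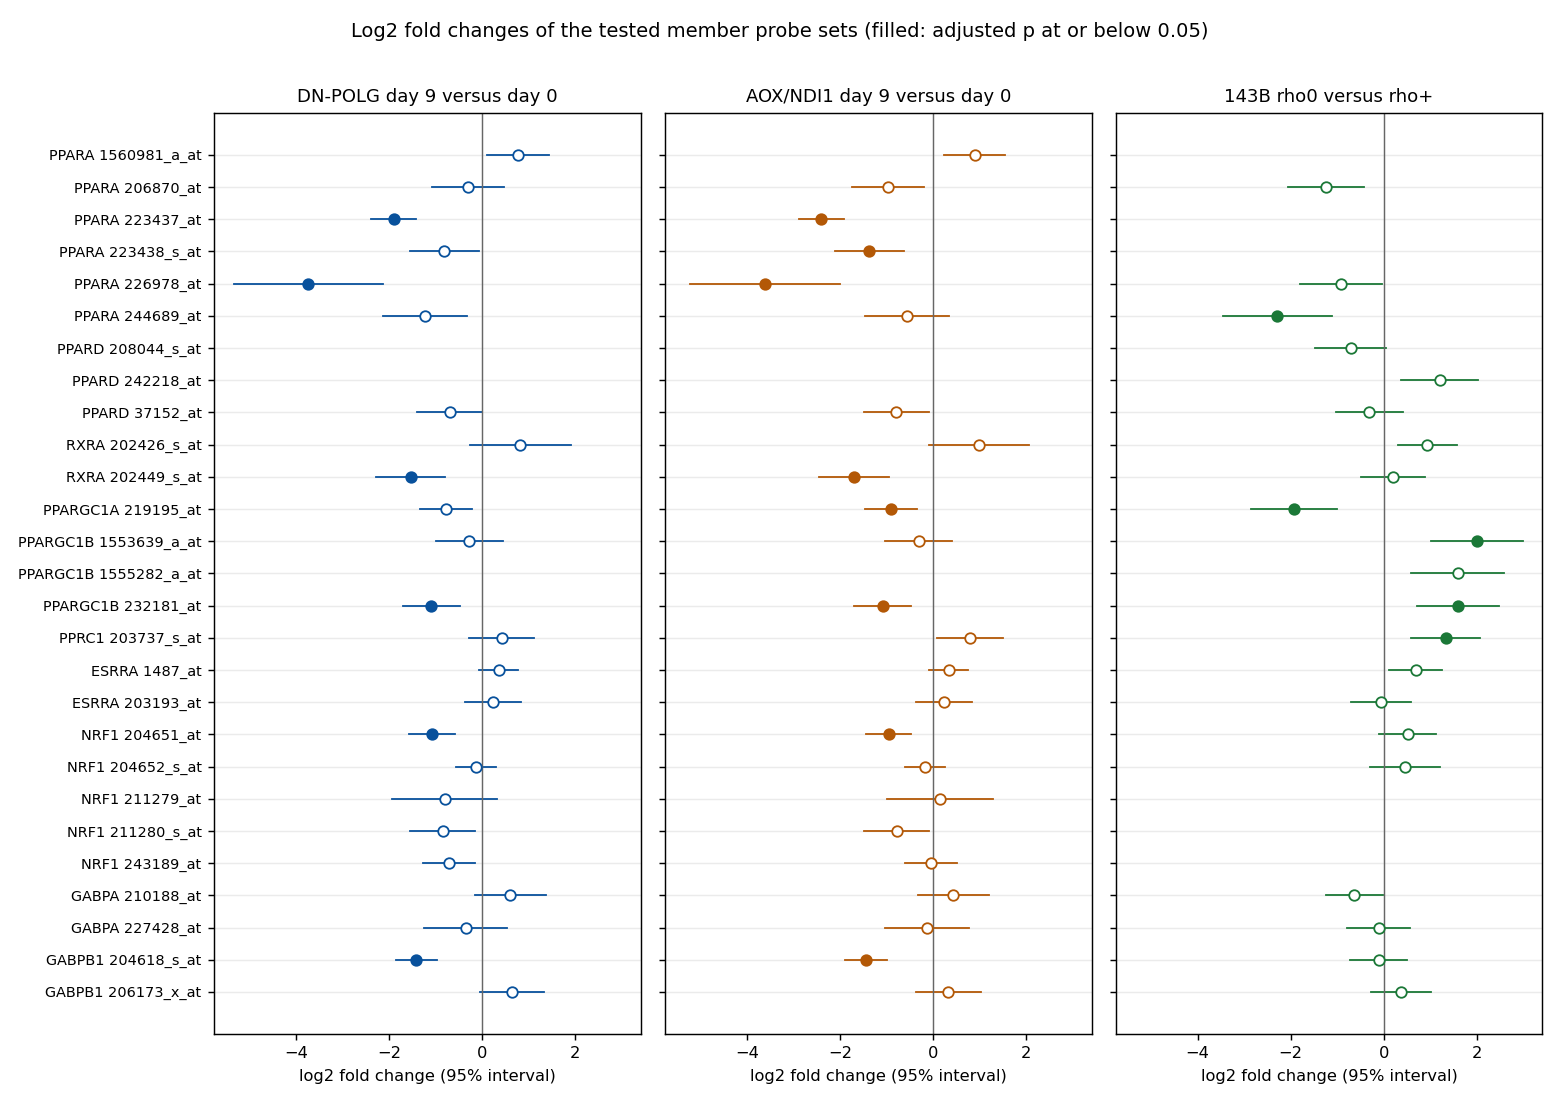
Log2 fold changes of the tested member probe sets (rows) with 95% intervals at day 9 against day 0 in DN-POLG and AOX/NDI1 cells and in rho0 against rho+ 143B cells, from limma; filled points have an adjusted p of at most 0.05 and rows without a point were below the signal filter. All filled points lie left of 0 in both HEK293 models, and in 143B cells 3 lie right of 0 and 2 left.

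PPARA, the gene of PPARα, had 9 probe sets, of which 6 were tested in HEK293 cells. In its brightest, 223437_at, the signals in DN-POLG cells were 238, 271 and 272 at day 0, 335.5, 216 and 270 at day 3, 165, 138 and 168 at day 6, and 65.55, 88.8 and 57.6 at day 9. All day 6 arrays thus lay below all day 0 arrays, and all day 9 arrays below those of day 6. The fold change was 3.74-fold lower at day 9 (log2 -1.90 ± 0.23 SE, adjusted p = 0.000189) and 1.66-fold lower at day 6, which did not pass (log2 -0.73 ± 0.23, adjusted p = 0.123). AOX/NDI1 cells had 338, 310 and 373 at day 0 and 51.8, 61.3 and 84.4 at day 9, a 5.26-fold fall (log2 -2.40 ± 0.23, adjusted p = 3.2e-05). The fall passed under each alternative in AOX/NDI1 cells (adjusted p 9.07e-08 to 0.0122) and under 10 of 11 in DN-POLG cells. The exception was an ANOVA modelled on the study's methods (adjusted p 0.121, alternatives from 6.92e-05). This setting, called the ANOVA of the methods below, used log2 signals of only the arrays compared and the signal filter used here. It is not the study's own analysis. Without replicate 3 of AOX/NDI1 day 9, the array with little POLG signal, the log2 fold change was -2.59.

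Probe set 226978_at of PPARA was dim at day 9. It read 253, 262 and 234 at day 0 of DN-POLG cells, 224, 191 and 363 at day 3, 106, 45.2 and 96.5 at day 6, and 103, 15.15 and 4.18 at day 9, and in AOX/NDI1 cells 266, 256 and 282 at day 0 and 37.2, 19.7 and 14.65 at day 9. Both day 9 groups lay apart from their day 0 groups, but 2 of 3 and 3 of 3 of their arrays lay below the signal filter. The log2 fold changes were -3.74 ± 0.76 in DN-POLG (adjusted p = 0.00605) and -3.60 ± 0.76 in AOX/NDI1 cells (adjusted p = 0.00545), and with an offset of 32 added to each signal before the log2 they were -2.20 and -2.44, so that the direction was kept but the size rests on signals below the filter. The DN-POLG call was lost with only the arrays of both groups in the fit (adjusted p = 0.113) and under the ANOVA of the methods (adjusted p = 0.325, alternatives from 0.000597). Leaving out 1 array put the DN-POLG value between -4.97, without replicate 1 of day 9, and -2.65, without replicate 3.

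The remaining PPARA probe sets did not all follow. Probe set 223438_s_at went from 145.5, 120 and 137 to 104, 72.5 and 58.5 in DN-POLG cells, which did not pass (log2 -0.81 ± 0.35, adjusted p = 0.187) except with array weights (adjusted p = 0.00702) and without the day 6 array with the high ACTB ratio (adjusted p = 0.0368), and from 161, 129 and 135.5 to 64.8, 48.5 and 52.0 in AOX/NDI1 cells, which did (log2 -1.37 ± 0.35, adjusted p = 0.0181). That call was lost without a signal filter (adjusted p = 0.0553, alternatives from 4.29e-05) and with 4 of 6 arrays left out. Probe set 244689_at read 93.7, 103 and 133.2 at day 0 of DN-POLG cells and 82.6, 60.8 and 19.4 at day 9, which missed the threshold (log2 -1.24 ± 0.42, adjusted p = 0.0884) unless replicate 1 of day 9 was left out (adjusted p = 0.03), and in AOX/NDI1 cells its groups overlapped. Probe set 206870_at overlapped in DN-POLG cells, with 53.7 to 125.5 at day 0 and 58.8 to 69.8 at day 9. In AOX/NDI1 cells it read 112.5, 112.4 and 65.1 against 63.4, 41.9 and 42.1 with no overlap, a log2 fold change of -0.96 ± 0.36 that passed under 3 of 10 alternatives only (adjusted p = 0.101, alternatives 0.0078 to 0.241). Of the 6, only 1560981_a_at had higher values at day 9, with 107.5, 85.9 and 90.5 against 52.9, 41.0 and 78.4 in DN-POLG cells and 89.1, 88.7 and 97.2 against 57.2, 74.2 and 28.3 in AOX/NDI1 cells. The groups did not overlap in either model, yet neither difference passed (log2 0.77 ± 0.31, adjusted p = 0.16, and 0.89 ± 0.31, adjusted p = 0.0766). In AOX/NDI1 cells it passed as a rise under quantile normalization (adjusted p = 0.0447), with all arrays set to 1 median (adjusted p = 0.0475), with array weights (adjusted p = 0.0301, alternatives up to 0.192) and without replicate 2 of day 0 (adjusted p = 0.0372). Probe sets 210771_at (25.0 to 86.5), 237142_at (3.65 to 55.6) and 1558631_at (2.47 to 38.6) had means below the filter in HEK293 cells and overlapped between day 0 and day 9 of both models. Averaged over its 6 tested probe sets, PPARA fell by 1.20 on the log2 scale in DN-POLG cells (adjusted p = 0.0104) and by 1.33 in AOX/NDI1 cells (adjusted p = 0.00363).

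In 143B cells, the PPARA probe set 244689_at read 252, 335 and 203 in rho+ and 42.6, 28.0 and 123 in rho0 cells, with no overlap, a 4.89-fold lower level (log2 -2.29 ± 0.51, adjusted p = 0.0353). Probe set 226978_at read 313, 275 and 191 against 84.8, 127 and 226, where the groups overlapped through replicate 3 of rho0 (log2 -0.92 ± 0.39, adjusted p = 0.168), and 206870_at read 187, 205 and 100.3 against 66.4, 49.6 and 88.3 (log2 -1.24 ± 0.35, adjusted p = 0.0685). Both passed with array weights (adjusted p = 0.0103 and 0.00409) and without replicate 3 of rho0 (adjusted p = 0.021 and 0.0239). The 3 tested probe sets all had lower means in rho0 cells, and their average passed at a log2 fold change of -1.48 (adjusted p = 0.0479). Probe set 223437_at, below the filter of 143B cells, had 187, 196.5 and 105 in rho+ and 10.4, 52.7 and 52.2 in rho0 cells, and 223438_s_at, also below it, 150, 106 and 69.9 against 29.6, 20.8 and 57.5. The call of 244689_at was lost with any 1 array left out other than replicate 3 of rho0, and also without a signal filter, under the ANOVA of the methods and with the replicate number as a block (adjusted p 0.0726, alternatives 0.000548 to 0.166). The higher ACTB ratios of rho+ cells moved with this difference, and their part in it was not tested.

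**Figure D2:**
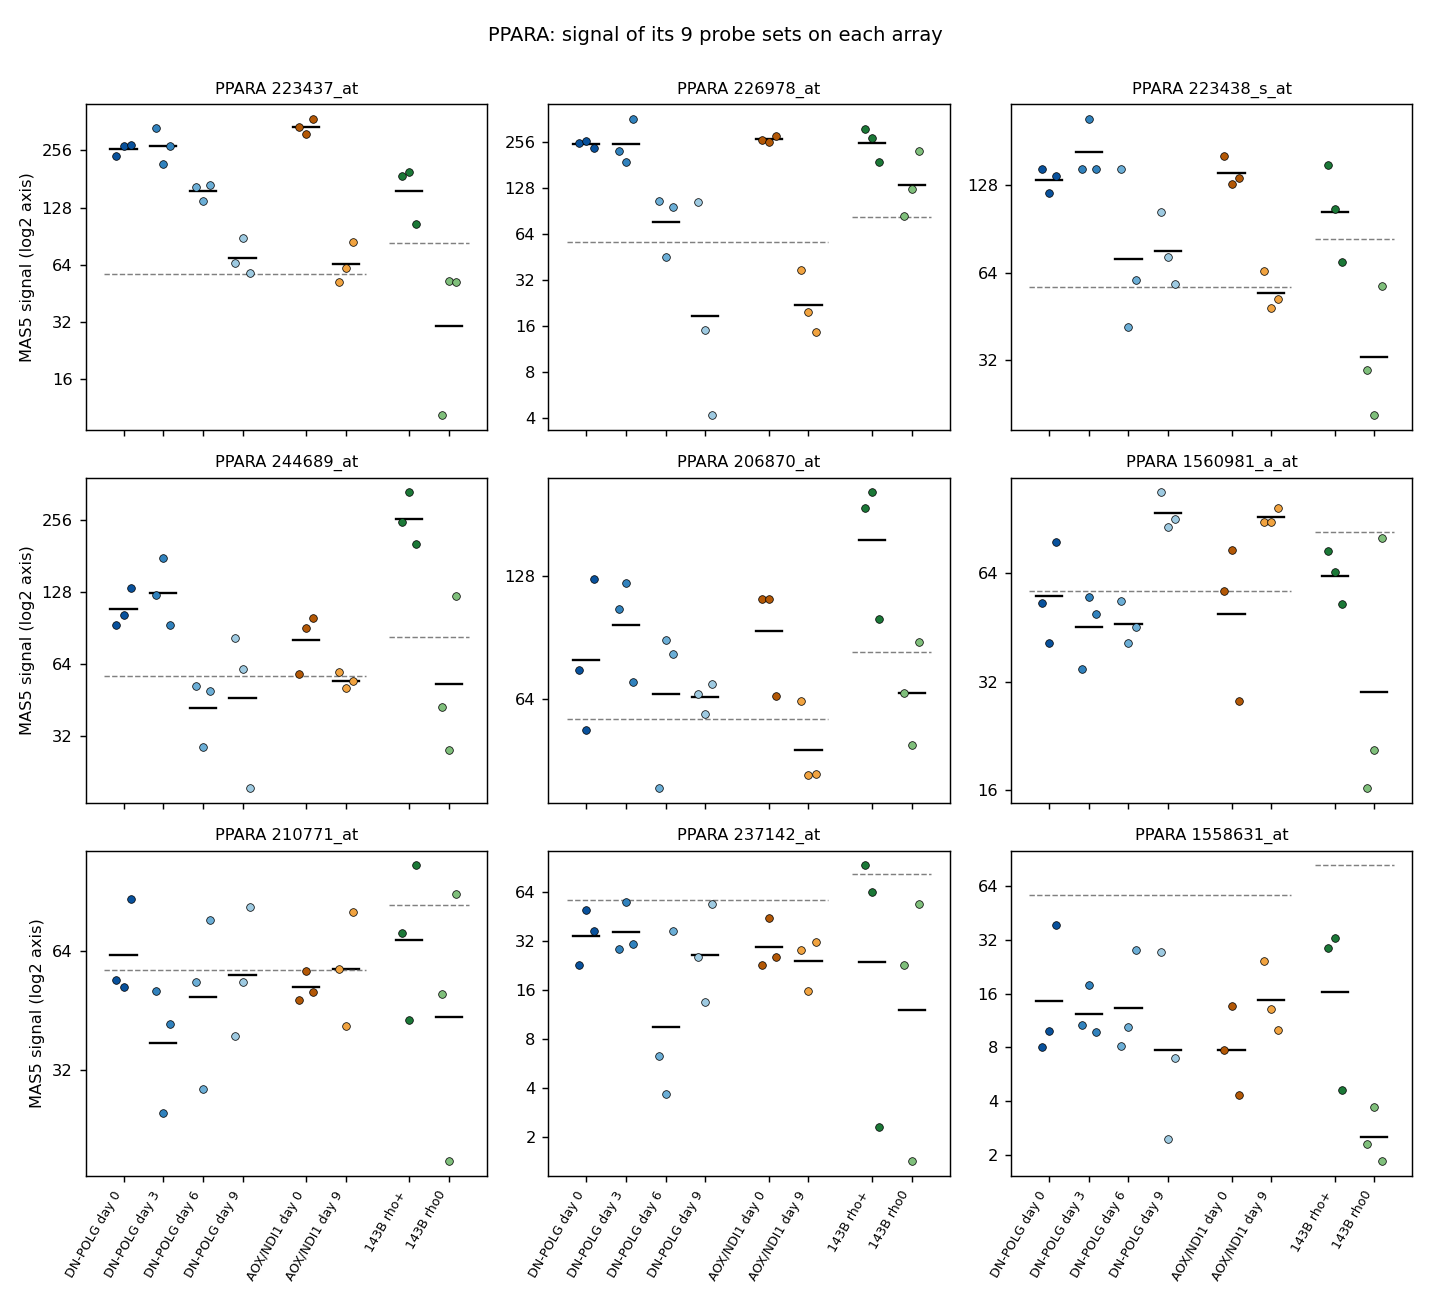
MAS5 signal (log2 axis) of the 9 PPARA probe sets on each of the 3 arrays of the 8 groups; points are arrays, black bars geometric means, and dashed lines the signal filter of HEK293 (57.2) and 143B cells (83.3). In 223437_at and 226978_at the day 9 arrays of both HEK293 models lie below all day 0 arrays, in 1560981_a_at they lie above them, and the bottom row was below the filter.

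Because NRF1 and GABP are members themselves, the 250 bases before the transcription starts of the members were searched on both strands for the cores these factors bind, in RefSeq promoters of build GRCh38.p14. The table held 12 starts of 9 members, with no entry for NRF1. The palindromic NRF1 core, GCGCA followed by TGCGC, was found before 1 member start, of PPARA, and before 1.03% of all 35116 starts. As GCGCA, then any base, then GCGC, which the palindrome also meets, it was found before 5.07% of all starts and among members before PPARA and ESRRA. The ETS core CCGGAAG, which GABP binds, was found before 8.52% of all starts and among members before the other PPARA start and before GABPA, both times on the reverse strand, so that CTTCCGG stands on the strand printed. The following windows show these matches in capitals, at chr22:46150728-46150787 and chr22:46150363-46150449 for PPARA, chr11:64305391-64305480 for ESRRA and chr21:25734866-25734952 for GABPA, all on the plus strand.
PPARA, NRF1 core: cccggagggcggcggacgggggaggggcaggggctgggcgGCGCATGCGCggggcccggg
PPARA, ETS core: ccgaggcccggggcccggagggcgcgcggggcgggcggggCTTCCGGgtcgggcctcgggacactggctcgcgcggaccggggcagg
ESRRA, NRF1 core: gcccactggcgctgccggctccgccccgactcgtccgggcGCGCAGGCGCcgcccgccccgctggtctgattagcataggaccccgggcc
GABPA, ETS core: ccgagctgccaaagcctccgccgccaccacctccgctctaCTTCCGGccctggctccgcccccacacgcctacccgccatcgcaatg
The NRF1 core of PPARA ended 11 bases before its start. Neither a pair of AGGTCA with 1 base between, the direct repeat to which PPAR and RXR bind as a pair (0.0171% of all starts), nor TCAAGGTCA, the extended core for ERR (0.319%), was in the window of a member. Such matches describe letters in a window and are not evidence of binding in these cells.

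PPARD, the gene of PPARδ, a receptor found in most tissues, passed in no comparison. In HEK293 cells 1 of its 4 probe sets was bright enough, 37152_at, with 442, 245 and 742 at day 0 of DN-POLG cells and 186, 362 and 281 at day 9, which overlapped (log2 -0.70 ± 0.33, adjusted p = 0.237) and passed only without replicate 2 of day 0 (adjusted p = 0.0285). In AOX/NDI1 cells the groups lay apart, at 521, 610 and 616 against 386, 330.5 and 295, which missed the threshold as well (log2 -0.79 ± 0.33, adjusted p = 0.137) but passed under 3 of 11 alternatives (adjusted p 0.00458 to 0.264). In 143B cells its probe sets pointed in different directions. The brightest, 37152_at, overlapped between rho+ (858, 1367 and 1816) and rho0 (1051, 936 and 1133), whereas 242218_at read 214, 160 and 197 against 558, 588 and 250 (log2 1.20 ± 0.36, adjusted p = 0.0788). It passed with all arrays set to 1 median (adjusted p = 0.0382), with array weights (adjusted p = 0.00128, alternatives up to 0.207) and without replicate 3 of rho0. Probe set 208044_s_at, at 90.5 to 158 and 58.5 to 107, overlapped (log2 -0.71, adjusted p = 0.209), yet passed as lower with array weights (adjusted p = 0.0127) and without replicate 3 of rho0 (adjusted p = 0.0368), and 210636_at was below the filter in both lines.

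RXRA, whose product is the DNA-binding partner of both PPARs, had 2 tested probe sets that disagreed. In 202449_s_at, DN-POLG cells read 384, 368.5 and 524 at day 0, 488, 381 and 342 at day 3, 514, 149 and 289 at day 6 and 184, 127.5 and 127.9 at day 9. AOX/NDI1 cells read 389, 494 and 529 at day 0 and 192, 139 and 111.5 at day 9. In both models every day 9 array lay below every day 0 array, a 2.91-fold fall in DN-POLG (log2 -1.54 ± 0.35, adjusted p = 0.0123) and a 3.24-fold fall in AOX/NDI1 cells (log2 -1.70 ± 0.35, adjusted p = 0.00505). The DN-POLG call was lost under the ANOVA of the methods (adjusted p = 0.146, alternatives from 0.00139) and without replicate 3 of day 9 (adjusted p = 0.0557). The AOX/NDI1 call was lost under no alternative that tested this probe set by itself. Averaged over both probe sets, RXRA passed neither in DN-POLG (log2 -0.36, adjusted p = 0.596) nor in AOX/NDI1 cells (log2 -0.36, adjusted p = 0.5245). Probe set 202426_s_at read 262, 400.5 and 71.35 at day 0 and 385, 299.5 and 356 at day 9 of DN-POLG cells, and 236, 202 and 146 against 428, 338 and 372.5 in AOX/NDI1 cells. Its log2 fold changes of 0.82 ± 0.51 and 0.985 ± 0.51 did not pass (adjusted p = 0.392 and 0.234), but the latter, whose groups did not overlap, passed as a rise with only these arrays in the fit (adjusted p = 0.0141) and with array weights (adjusted p = 0.00392, alternatives up to 0.524). Over the 18 HEK293 arrays the log2 signals of both probe sets had a Pearson correlation of -0.38, given as a description, since the arrays share groups. In 143B cells neither passed, at log2 0.20 ± 0.30 and 0.94 ± 0.28 in rho0 cells (adjusted p = 0.712 and 0.077), and 202426_s_at passed as higher under 3 of 7 alternatives (adjusted p 0.0131 to 0.191).

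PPARGC1A encodes PGC-1α, the coactivator that cold, exercise and fasting induce. Its brighter probe set, 219195_at, read 203, 202 and 273 at day 0 of DN-POLG cells, 205, 121.5 and 176 at day 3, 134.5, 190 and 208 at day 6 and 96.1, 181 and 129 at day 9. The day 9 arrays lay below those of day 0, at -0.77 ± 0.26 on the log2 scale, without passing (adjusted p = 0.0858) except without replicate 2 of day 9 (adjusted p = 0.0439). In AOX/NDI1 cells 271, 256 and 252 became 148, 154 and 116, a 1.88-fold fall that passed (log2 -0.91 ± 0.26, adjusted p = 0.033). That call was lost with any 1 of the 6 arrays left out (adjusted p 0.0538 to 0.137), as well as under 4 of 11 other settings (adjusted p 0.000472 to 0.123). The difference between the responses of both models was -0.14 on the log2 scale (95% interval -0.92 to 0.65), which did not pass. In 143B cells it read 388, 353 and 913 in rho+ and 97.35, 145 and 160 in rho0 cells, 3.81-fold lower with no overlap (log2 -1.93 ± 0.40, adjusted p = 0.0284). Replicate 3 of rho+ was the highest array, and without it the log2 fold change was -1.50 and did not pass (adjusted p = 0.065), and the call was lost with each other array left out but replicate 3 of rho0. Its second probe set, 1569141_a_at, was below the filter in both lines, at 0.533 to 60.6.

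PPARGC1B, for the related coactivator PGC-1β, fell in HEK293 cells and was higher in rho0 cells. Probe set 232181_at read 472, 366 and 620 at day 0 of DN-POLG cells, 738, 418 and 469 at day 3, 361, 276 and 577.5 at day 6 and 217, 182 and 277 at day 9, and in AOX/NDI1 cells 555.5, 514 and 690 against 267, 274 and 286. In both models the day 9 arrays lay below all day 0 arrays, with log2 fold changes of -1.10 ± 0.29 (adjusted p = 0.0273) and -1.08 ± 0.29 (adjusted p = 0.0233). Both calls were near the threshold, since they remained with 2 of 6 and 1 of 6 arrays left out and under 6 of 11 and 8 of 11 other settings (adjusted p up to 0.228 and 0.0846). The other tested probe set, 1553639_a_at, did not follow, with 124 to 222 at day 9 of DN-POLG cells against 181 to 231.5 at day 0 (log2 -0.28 ± 0.34, adjusted p = 0.72) and -0.31 ± 0.34 in AOX/NDI1 cells (adjusted p = 0.612). In 143B cells, 232181_at read 1858, 1066 and 1364 in rho+ and 4855, 6148 and 2479 in rho0 cells, 3.01-fold higher (log2 1.59 ± 0.38, adjusted p = 0.0439). There 1553639_a_at went the same way, from 249, 143 and 136 to 931, 938 and 359 (log2 2.00 ± 0.43, adjusted p = 0.0317), as did 1555282_a_at, from 81.45, 44.6 and 42.2 to 259, 179 and 89.3, which did not pass (log2 1.59 ± 0.43, adjusted p = 0.0618) but did under 4 of 8 alternatives and without replicate 3 of rho0. In all 3 the rho0 arrays lay above the rho+ arrays, and replicate 3 was the lowest of rho0. Probe set 1563943_at was below the filter everywhere (0.914 to 47.8), and 1555282_a_at in HEK293 cells, where it read 177 on the DN-POLG day 6 array with the high ACTB ratio and at most 61.3 on the others.

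PPRC1 encodes PRC, the family member that serum induces in growing cells. Its single probe set, 203737_s_at, read 1066, 1356 and 658 at day 0 of DN-POLG cells, 935, 1264 and 743 at day 3, 3303, 1277 and 1541 at day 6 and 1206, 1145 and 1635 at day 9. The 3303 belongs to the day 6 array with the high ACTB ratio, and the day 6 difference did not pass (log2 0.92 ± 0.33, adjusted p = 0.182). AOX/NDI1 cells went from 1002, 785 and 864 to 1527, 1641 and 1419, so that the groups lay apart, at 0.80 ± 0.33 on the log2 scale. This missed the threshold in the fit of all HEK293 arrays (adjusted p = 0.137) but passed in the fit of these 6 arrays (adjusted p = 0.0075), with array weights (adjusted p = 0.000897, alternatives up to 0.265), under the ANOVA of the methods (adjusted p = 0.0232) and without that day 6 array (adjusted p = 0.0472). In 143B cells it rose from 697, 430 and 512 in rho+ to 1643, 1644 and 909 in rho0 cells (log2 1.33 ± 0.32, adjusted p = 0.0454). The rho0 arrays again lay above all rho+ arrays, and as for PPARGC1B, the call remained only when replicate 3 of rho0 was the array left out. Of the 3 coactivators, PPARGC1B and PPRC1 were thus higher and PPARGC1A lower in rho0 cells, in cells whose ACTB ratios also differed, and the part of RNA quality in these values was not tested.

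**Figure D3:**
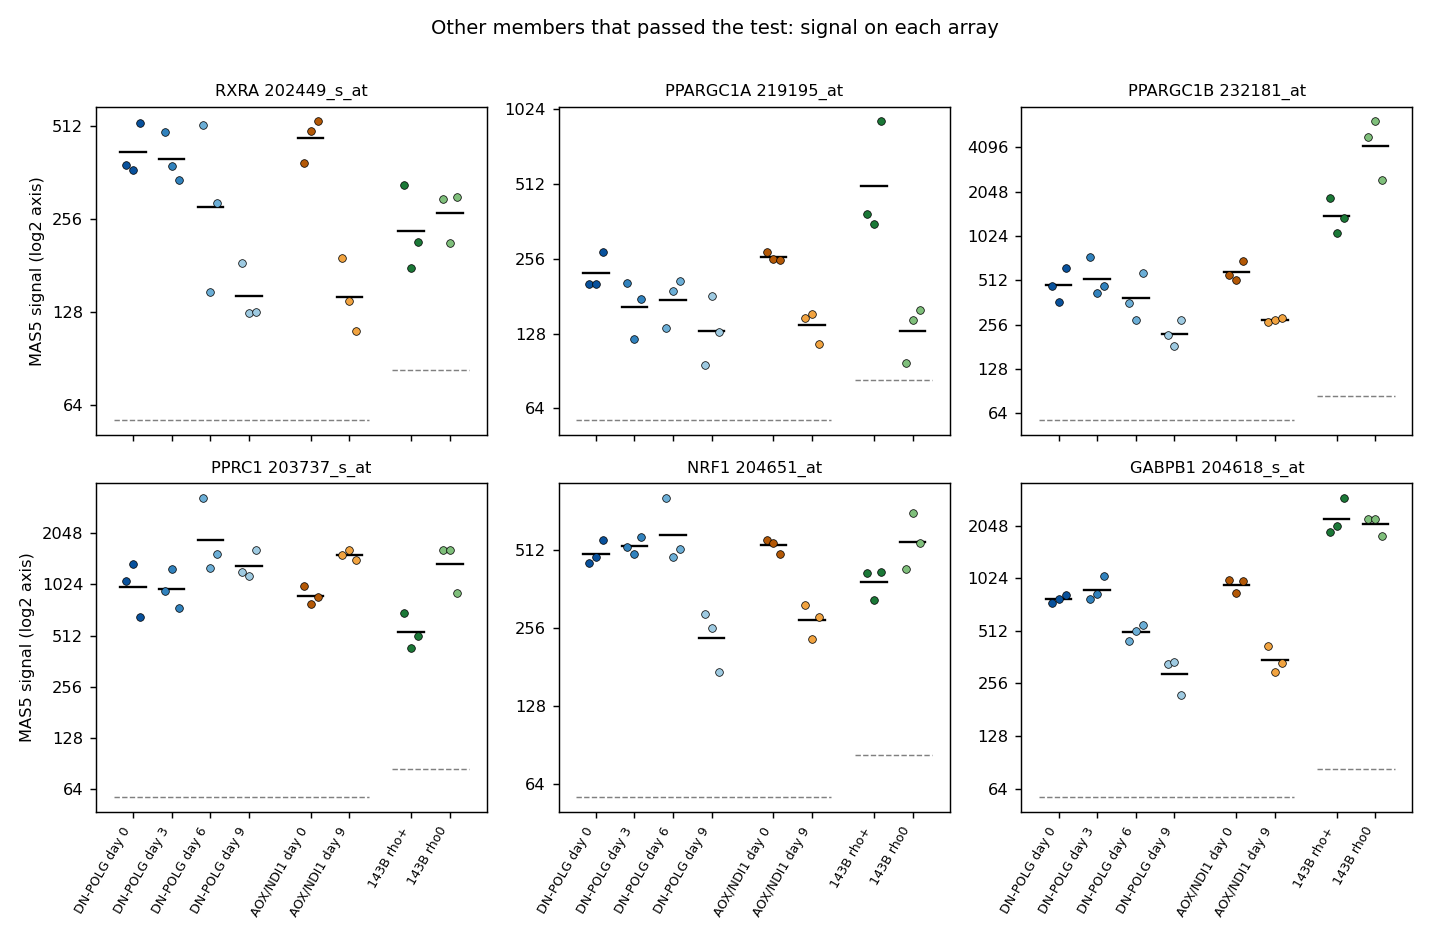
MAS5 signal (log2 axis) on each array of a probe set of each other member that passed, in the 8 groups; points are arrays, black bars geometric means and dashed lines the signal filters. RXRA, PPARGC1B, NRF1 and GABPB1 are lower at day 9 than at day 0 of both HEK293 models, whereas in 143B rho0 cells PPARGC1B and PPRC1 are higher and PPARGC1A is lower than in rho+ cells.

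ESRRA, for ERRα, the receptor through which PGC-1α reaches many oxidative phosphorylation genes, did not pass. Probe set 1487_at read 710, 803 and 773.5 at day 0 of DN-POLG cells and 892, 913 and 1118 at day 9, and 707, 864 and 882 against 1018, 1106 and 964 in AOX/NDI1 cells. In both models all day 9 arrays lay above all day 0 arrays, by small amounts (log2 0.35 ± 0.20, adjusted p = 0.334, and 0.34 ± 0.20, adjusted p = 0.296), and in AOX/NDI1 cells it passed as a rise with array weights alone (adjusted p = 0.0284, alternatives up to 0.458). In 143B cells it read 280, 194 and 225 in rho+ and 403, 332 and 380 in rho0 cells (log2 0.68 ± 0.25, adjusted p = 0.12). With all 143B arrays set to 1 median, which adds 0.31 to every log2 fold change there, it passed at 0.99 (adjusted p = 0.04), as it did with array weights (adjusted p = 0.0288, alternatives up to 0.42). Its other probe set, 203193_at, overlapped between the groups in each of these comparisons.

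NRF1, which activates genes of the respiratory chain and of the mitochondrial transcription machinery, had 5 tested probe sets in HEK293 cells. The brightest, 204651_at, read 454, 481 and 557 at day 0 of DN-POLG cells, 524, 493 and 572 at day 3, 811, 479 and 517 at day 6 and 290.0, 256 and 174 at day 9. It read 561, 544 and 495 in uninduced AOX/NDI1 cells and 315, 232 and 283 at day 9. These were falls of 2.11-fold (log2 -1.08 ± 0.23, adjusted p = 0.00883) and 1.94-fold (log2 -0.96 ± 0.23, adjusted p = 0.0135), with no overlap in either model, and the groups of days 3 and 6 overlapped with day 0. The calls remained with 5 of 6 and 3 of 6 arrays left out (adjusted p up to 0.0545 and 0.0602). The DN-POLG call was also lost with only the arrays of both groups in the fit (adjusted p = 0.1) and under the ANOVA of the methods (adjusted p = 0.198), and the AOX/NDI1 call with averaged probe sets. Of the other 4, 204652_s_at overlapped at day 9 (log2 -0.13 ± 0.20 and -0.16 ± 0.20), 211280_s_at had -0.85 ± 0.33 and -0.78 ± 0.33 without passing (adjusted p = 0.135 and 0.138), the second of which passed under 2 of 9 alternatives, 211279_at overlapped between the days, and 243189_at overlapped at day 9 of both models, though it passed with array weights in DN-POLG cells (adjusted p = 0.0235). Averaged over the 5, NRF1 fell by 0.71 on the log2 scale in DN-POLG cells (adjusted p = 0.0122), and its value of -0.36 in AOX/NDI1 cells did not pass (adjusted p = 0.157).

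Probe set 243189_at of NRF1 was the only member probe set called at day 6, where 1.05% of all tested probe sets and 1.92% of all tested genes were called lower. It read 166, 192 and 123 at day 0 and 72.9, 76.4 and 61.7 at day 6 (log2 -1.17 ± 0.26, adjusted p = 0.0406). It did not pass with any 1 of the 6 arrays left out (adjusted p 0.0518 to 0.0895), passed under 3 of 9 other settings (adjusted p 0.023 to 0.676), and with the replicate number as a block, which pairs day 0 with day 6 in these cells, had an adjusted p of 0.101. The other NRF1 probe sets did not go with it, 204652_s_at being higher on every day 6 array (525, 390 and 370) than on the day 0 arrays (211, 336 and 297) without passing (adjusted p = 0.143), and passing as a rise with array weights (log2 0.81, adjusted p = 0.0182). PPARA 223438_s_at passed as lower at day 6 with array weights (log2 -1.43, adjusted p = 0.00982) and without the day 6 array with the high ACTB ratio (log2 -1.41, adjusted p = 0.0358), but not with all arrays at equal weight (adjusted p = 0.219). In 143B cells neither tested NRF1 probe set passed, and 204651_at read 416, 327 and 419.9 in rho+ and 432, 708 and 542 in rho0 cells, which lay just apart (log2 0.51 ± 0.27, adjusted p = 0.259).

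Of the GA-binding protein chains only the β chain was called, through a single probe set, and the chains were not tested against each other. Averaged over its probe sets, GABPB1 did not pass at day 9 in DN-POLG (log2 -0.39, adjusted p = 0.342) or AOX/NDI1 cells (log2 -0.56, adjusted p = 0.117). For the activating β chain, GABPB1, the probe set 204618_s_at read 735, 774 and 818.5 at day 0 of DN-POLG cells, 775, 829.8 and 1049 at day 3, 449, 511 and 553 at day 6 and 328, 338 and 219 at day 9. AOX/NDI1 cells read 1006, 838 and 987 at day 0 and 417, 297 and 336 at day 9. Day 9 arrays lay below all others of their model, and day 6 arrays below those of day 0. The falls at day 9 were 2.68-fold (log2 -1.42 ± 0.21, adjusted p = 0.000723) and 2.71-fold (log2 -1.44 ± 0.21, adjusted p = 0.00049), and that at day 6 did not pass (log2 -0.625 ± 0.21, adjusted p = 0.15). Both day 9 calls remained with each array left out. Of the alternatives that tested this probe set by itself, only the ANOVA of the methods ended the DN-POLG call (adjusted p = 0.141, alternatives from 0.000231). The second probe set of the gene, 206173_x_at, went from 1930, 1481 and 928.5 to 1871, 3295 and 1623 in DN-POLG cells and from 1869, 1677 and 1613 to 1908, 2261 and 2324 in AOX/NDI1 cells, without passing (log2 0.64 ± 0.33, adjusted p = 0.282, and 0.33 ± 0.33, adjusted p = 0.57), and the groups lay apart in AOX/NDI1 cells only. Its name ends in _x_at, which Affymetrix gives to probe sets that may also bind other transcripts. The name of the called 204618_s_at ends in _s_at, and the alternative without _s_at and _x_at probe sets left out both. In 143B cells 204618_s_at overlapped, at 1878, 2044 and 2942 in rho+ and 2248, 2243 and 1787 in rho0 cells (log2 -0.11 ± 0.27, adjusted p = 0.826).

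GABPA, the DNA-binding chain, passed in no comparison. Its brightest probe set, 227428_at, read 2152, 950.2 and 2198 at day 0 of DN-POLG cells and 905, 1771 and 1326 at day 9, 1572, 1835 and 1920 against 1475, 1388 and 2066 in AOX/NDI1 cells, and 910, 1399 and 1503 in rho+ against 1030, 1002 and 1494 in rho0 cells. The groups overlapped in all 3 comparisons. Probe set 210188_at had higher values at day 9 (log2 0.60 ± 0.36, adjusted p = 0.374, and 0.44 ± 0.36, adjusted p = 0.486) and lower ones in rho0 cells (log2 -0.63 ± 0.27, adjusted p = 0.171). The first of these passed with array weights alone (adjusted p = 0.00772, alternatives up to 0.54).

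**Figure D4:**
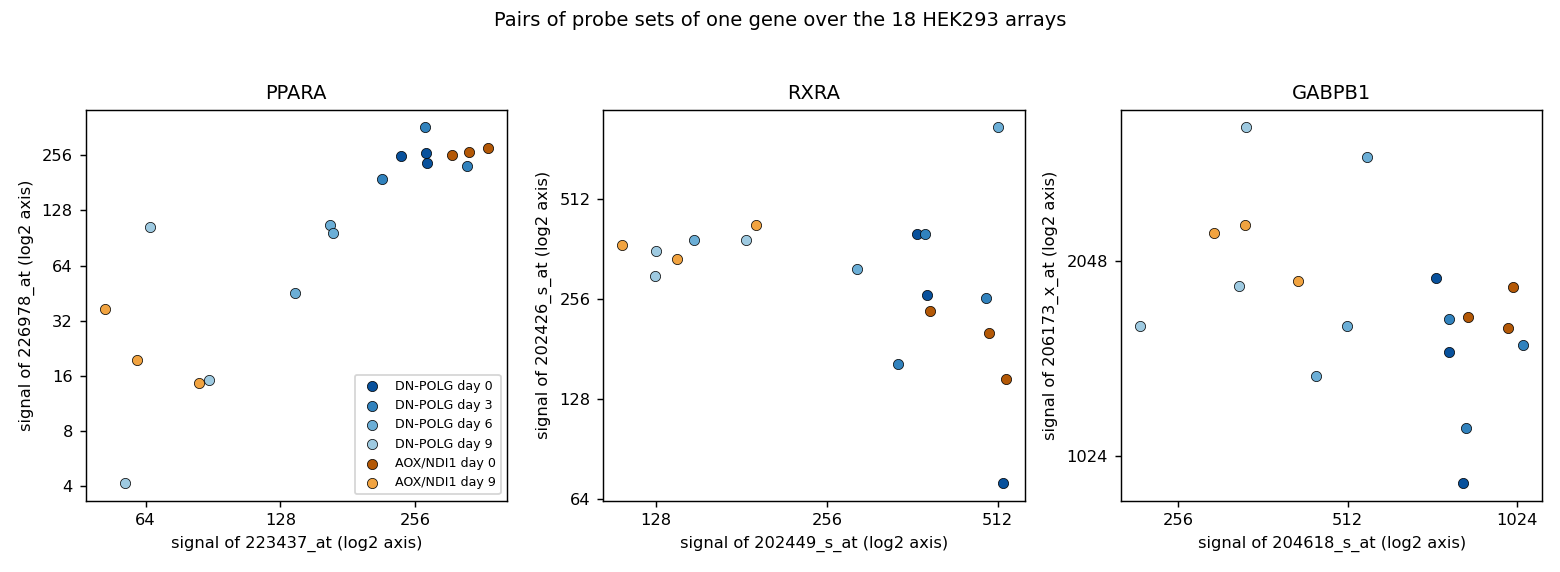
MAS5 signals (log2 axes) of pairs of probe sets of PPARA, RXRA and GABPB1 on the 18 HEK293 arrays, coloured by group. The PPARA pair, 223437_at and 226978_at, was drawn for its smallest adjusted p at day 9 and rises together (Pearson r = 0.86 over the 18 arrays). This was the highest r of the tested PPARA pairs, and 1560981_a_at had r = -0.74 with 223437_at. The RXRA (r = -0.38) and GABPB1 pairs (r = -0.45) do not rise together, the second probe set being brighter on many day 9 arrays.

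The position of these probes within the transcripts was not analysed here, so that which transcripts of PPARA, RXRA, NRF1 or GABPB1 each probe set reports is not known from these data. Averaging the probe sets of a gene left 2 members called in each HEK293 model, PPARA and NRF1 in DN-POLG and PPARA and PPARGC1A in AOX/NDI1 cells. It left the 4 calls of 143B cells in place. The shares of all genes called after averaging are not given here, so these counts are not compared with a background.

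No member passed at day 3, where the largest log2 change of a member probe set was 0.452 in size and none had an unadjusted p under 0.05. At that time 0 of all 23132 tested probe sets passed and 2.72% had an unadjusted p under 0.05, by limma, while array weights called 1.61% of all genes and no member. The POLG probe set 217635_s_at was among those that did not pass, though it read 2899 to 3755 at day 3 against 280 to 421 at day 0. The lack of calls at day 3 therefore does not show a lack of change. At day 6, 9 of the 24 member probe sets had an unadjusted p under 0.05, against 16.1% of all, among them 4 of PPARA with log2 fold changes from -1.69 to -0.73. Uninduced AOX/NDI1 and DN-POLG cells did not differ in any member by an adjusted p of at most 0.05 (0.00432% of all called), the largest log2 difference being 0.477 in size.

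Whether AOX and NDI1 altered the response at day 9 was tested as the difference of both day 9 changes, which used the day 0 arrays of each model. No member probe set passed (0 of all tested probe sets called), and 0 of 24 had an unadjusted p under 0.05, against 3.39% of all. For PPARA 223437_at the difference was -0.49 (95% interval -1.18 to 0.19), for RXRA 202449_s_at -0.16 (-1.21 to 0.90), for PPARGC1B 232181_at 0.02 (-0.85 to 0.89), for NRF1 204651_at 0.12 (-0.57 to 0.82) and for GABPB1 204618_s_at -0.02 (-0.65 to 0.61). The interval for PPARA 226978_at, from -2.14 to 2.41, leaves room for large differences in either direction.

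Of 32 known targets of PPARα, 28 had a probe set and 18 were tested in HEK293 cells. At day 9 1 of these fell, CPT2, and none rose in either model, where 9.66% and 14.4% of all tested genes were called lower and 4.04% and 4.28% higher in DN-POLG and AOX/NDI1 cells. CPT2, the enzyme that frees long-chain acyl groups from carnitine inside mitochondria, had signals of 460.5, 470 and 729 at day 0 and 288, 294 and 252 at day 9 of DN-POLG cells in probe set 204263_s_at (log2 -0.96 ± 0.24, adjusted p = 0.0204). In AOX/NDI1 cells 629, 731 and 648.5 became 340, 301 and 313 (log2 -1.07 ± 0.24, adjusted p = 0.00846). In this probe set no day 9 array of either model reached a day 0 array. The other CPT2 probe set, 204264_at, was not called. It overlapped in DN-POLG cells, at 1037, 312 and 1292 against 220, 435 and 390. In AOX/NDI1 cells it did not, at 1054, 1091 and 1467 against 564, 426 and 488. The median log2 fold change of the 18 genes was 0.15 in DN-POLG and -0.03 in AOX/NDI1 cells, against 0.01 and -0.03 over all tested genes. In 143B cells 1 of 19 tested targets was higher in rho0 cells, ECI2, an isomerase of unsaturated fatty acid oxidation (log2 1.09 ± 0.27, adjusted p = 0.048), and none lower, against 3.68% and 7.75% of all genes.

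Among 30 known targets of NRF1 and GABP, 27 were tested in HEK293 cells. At day 9 of DN-POLG cells 2 rose and 1 fell, where 4.04% of all tested genes were called higher and 9.66% lower. NDUFB8, a subunit of complex I, was called through probe set 214241_at only. It rose from 241, 300 and 218 to 682, 687 and 877 (log2 1.57 ± 0.25, adjusted p = 0.00112). TOMM20, a receptor of protein import, rose from 6372, 6856 and 6551 to 12460, 13500 and 13890 (log2 1.01 ± 0.20, adjusted p = 0.00517). The gene that fell was CYCS, for cytochrome c, in its probe set 244546_at (log2 -0.79 ± 0.22, adjusted p = 0.0335). NDUFB8, TOMM20 and UQCRB, a subunit of complex III, rose in AOX/NDI1 cells and none fell (4.28% and 14.4% of all), with log2 fold changes of 1.42 ± 0.25, 0.80 ± 0.20 and 0.63 ± 0.17. In rho0 cells 3 of 28 were higher, among them MRPS12, a protein of the mitochondrial ribosome, at 1558, 1669 and 1419 against 571, 490 and 579 (log2 1.50 ± 0.23, adjusted p = 0.0111), with COX4I1 of complex IV and CYC1 of complex III the others, and none was lower (3.68% and 7.75% of all). Their median log2 fold changes were 0.14, 0.19 and 0.40 in the 3 comparisons, against 0.01, -0.03 and -0.02 over all tested genes.

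Of 32 partners and modifiers of the members (coactivators, corepressors, upstream kinases and factors), 25 were tested. At day 9, 6 were called only as lower in DN-POLG cells (CREB1, CREBBP, MED1, NRIP1, PRKAA2 and PRKAG2). In AOX/NDI1 cells these were 7 (the same without CREBBP, and EP300 and NCOA2). None was called only as higher. NCOA6 was called in both directions in each model and is not in these counts. Of all tested genes, 9.66% and 14.4% were called lower and 4.04% and 4.28% higher, shares that include genes called in both directions. CREB1 and NCOA6 were already lower at day 6 (1.92% of all). NCOA6, a coactivator of nuclear receptors, had 1 probe set that rose and 1 that fell at day 9 of both. CREB1, the factor that switches on PPARGC1A after cAMP signals, fell from 326, 426 and 567 to 123, 78.4 and 91.3 in probe set 225565_at of DN-POLG cells (log2 -2.16 ± 0.30, adjusted p = 0.000513) and by 1.65 ± 0.30 on the log2 scale in AOX/NDI1 cells (adjusted p = 0.0023). MED1, the Mediator subunit that binds PPARs, fell from 2172, 2321 and 1732 to 1075, 1095 and 944 in its probe set 225456_at (log2 -0.99 ± 0.20, adjusted p = 0.00518), and NRIP1, a corepressor of ERRα and the PPARs, from 757, 647 and 760 to 394, 377 and 189 (log2 -1.24 ± 0.27, adjusted p = 0.00825). The day 9 arrays lay below the day 0 arrays in each. The list's median log2 fold changes were -0.26 and -0.23, against 0.01 and -0.03 over all tested genes. In rho0 cells PRKAA2, a catalytic subunit of the kinase AMPK, and the factor YY1 were lower, through 2 probe sets each, with log2 fold changes from -1.65 to -0.94, where 7.75% of all genes were called lower, and none was higher.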

How the data were processed

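RNA of 24 cultures was hybridised to 1-colour Affymetrix 3′ arrays, and per the labels the authors made the signals with MAS5 in Affymetrix Expression Console. The deposited values are linear intensities, 1 per probe set and array. The scaling target is not given in the sources used here, and no further normalization was applied.

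Here log2 of the intensities was fitted with limma 3.58.1 in R 4.3.3, with 18 HEK293 arrays in a model of 6 group means and 6 arrays of 143B cells in another. Probe sets of a single gene were tested where their mean log2 signal was no less than the median of such means over all 54675 probe sets. These medians were 5.84 in HEK293 and 6.38 in 143B cells. Tested were thus 23132 probe sets (12104 genes) in HEK293 and 22786 (11433 genes) in 143B cells. Of 54675 probe sets, 41097 carry 1 symbol, 1801 several and 11777 none, and 62 are controls. By Entrez ID 41043 matched RefSeq. The code was tested on simulated data. Intervals and fold changes refer to these fits, and the number of arrays limits their precision. Detection calls were not analysed here.

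Named were the members, each PPARA probe set, MFSD2A, POLG, up to 4 genes per list with the smallest adjusted p, and the 5 genes most correlated with PPARA. The members and lists were chosen with earlier results of these data known. The study's methods say that a round of HEK293 cultures came from a single starter, without saying that replicate numbers mark rounds. Deviations of arrays from their group means correlated between same-numbered arrays of days 0 and 3 (0.323 to 0.506) and days 0 and 6 (0.165 to 0.205) of DN-POLG cells, but not of days 0 and 9 (-0.32 to 0.04), of AOX/NDI1 cells (-0.038 to 0.066) or of 143B cells (-0.178 to 0.074). Alternatives were other scalings, filters, an added offset of 32, averaged probe sets, array weights, an ANOVA modelled on the methods, a replicate block, and each array left out.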

Additional observations from a re-analysis of the deposited data

Results flagged for a closer look

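In 3 tested probe sets the arrays of rho0 and rho+ cells lay apart in one direction and those of day 9 and day 0 of a HEK293 model in the other, and the differences between these responses were not tested. Of these, PPARGC1B passed in both lines. The share of all tested probe sets with such opposite separation was not counted, so this count has no background beside it. PPARGC1B 232181_at had log2 fold changes of 1.59 in rho0 cells, -1.10 in DN-POLG and -1.08 in AOX/NDI1 cells. NRF1 204651_at had 0.51 in rho0 cells, which did not pass its test, against -1.08 and -0.96. GABPA 210188_at had -0.63 in rho0 and 0.44 in AOX/NDI1 cells, neither of which passed. ACTB 3′ to 5′ ratios ran from 10.4 to 17.1 on rho+ arrays and from 5.53 to 8.12 on rho0 arrays, and their part in these values was not tested.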

How the results depend on the processing

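Over all settings tried, no called member probe set changed direction. The counts of members called moved as follows. At day 6, where 1 member was called, the count was 0 under quantile normalization, with 1 median for all arrays, without a filter, with a stricter filter, with averaged probe sets, with only the arrays of the groups compared and under the ANOVA of the methods, and 2 with array weights (NRF1 in both directions and PPARA lower). At day 9 of DN-POLG cells 5 became 2 with the stricter filter and with averaged probe sets, 3 without _s_at and _x_at probe sets and with only the arrays compared, 0 under the ANOVA of the methods, and 6 with array weights, where GABPA was higher. At day 9 of AOX/NDI1 cells 6 became 2 with the stricter filter and with averaged probe sets, 4 without a filter and with 1 median, 8 with only the arrays compared and under the ANOVA of the methods, which added PPARD as lower and PPRC1 as higher, and 9 with array weights, which also added ESRRA as higher. In 143B cells 4 became 7 with 1 median for all arrays (5 higher, 2 lower, against 2 and 2) and with array weights, 2 with the stricter filter, and 0 without a filter and under the ANOVA of the methods. Uninduced models differed in 1 member with array weights and in 0 otherwise. Setting all arrays to 1 median added 0.14 to each log2 fold change of AOX/NDI1 day 9, 0.11 to day 6 and 0.31 to rho0. The cause of these changes was not tested. Shares of all genes called under each setting are not given here. The counts therefore describe how the calls held and are not compared with a background.

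With the replicate number as a block, 0 members were called at day 6, where the numbers pair the arrays, and 2 in 143B cells (PPARGC1B and PPARGC1A), where nothing says that they do. PPARGC1A at day 9 of AOX/NDI1 cells was lost (adjusted p = 0.0617), and the block changed no other count of members called. With 1 array left out, counts ran from 0 to 1 at day 6 (PPARA, without replicate 1 of day 6), from 3 to 6 at day 9 of DN-POLG cells, from 3 to 4 at day 9 of AOX/NDI1 cells and from 0 to 5 in 143B cells, and stayed at 0 in the other comparisons. The lowest DN-POLG count came without replicate 3 of day 9, and the lowest AOX/NDI1 counts when either day 0 replicate 1 or day 9 replicate 2 was omitted. Leaving out the day 6 array with the high ACTB ratio, which was chosen after seeing the data, gave 5 members at day 9 of DN-POLG cells and 7 of AOX/NDI1 cells. Probe sets near or below the filter, among them PPARA 226978_at at day 9, have only rough fold changes.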

Other observations

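The genes whose log2 signal was most like that of PPARA 223437_at over the 18 HEK293 arrays were VANGL1, a planar polarity protein, GTF3C4, a subunit of a factor that recruits RNA polymerase III, HIVEP2, a zinc finger factor, NPAT, an activator of histone genes, and BTBD7, with Pearson correlations of 0.97 to 0.98. The arrays share days and models, so these values describe a common course and carry no test. Geometric mean signals of VANGL1 went from 411 at day 0 to 420 at day 3, 205 at day 6 and 48.7 at day 9 of DN-POLG cells, and from 442 to 48.5 in AOX/NDI1 cells. In 143B cells, whose arrays were not used to choose them, VANGL1 (1383 in rho+, 628 in rho0), HIVEP2 (2535 and 1007) and BTBD7 (1736 and 1255) had lower means in rho0 cells, and GTF3C4 (721 and 1003) and NPAT (720 and 975) higher ones, with no test.

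MFSD2A, a lipid transporter of the fasting liver and of the blood-brain barrier that PPARα can induce in liver, passed in no comparison. Its probe set 225316_at read 458, 564 and 267 at day 0 and 355, 410.0 and 378 at day 9 of DN-POLG cells (log2 -0.11, adjusted p = 0.871), and the change in AOX/NDI1 cells was 0.08 (adjusted p = 0.883). In rho0 cells it read 666, 778 and 150 against 209, 126 and 172 in rho+ cells, where replicate 3 overlapped with rho+ and the difference did not pass (log2 1.36, adjusted p = 0.178).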
